A study of Mus musculus with 6 samples.

Results

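The POU domain transcription factors examined here are 9 genes, Pou2f1, Pou3f1, Pou3f2, Pou3f3, Pou3f4, Pou4f1, Pou4f2, Pou4f3 and Pou6f1, picked by symbol from the 32531 gene entries in each count file. The samples are midbrain RNA of adult, untreated Lhx5-TRAP DT154 mice, sequenced as 3 immunopurified (IP) libraries and 3 libraries whose titles call them input. All 6 libraries come from the same line, in which regulatory sequences of Lhx5, a LIM homeodomain gene, drive EGFP fused to Rpl10a, a protein of the large ribosomal subunit, so that an EGFP antibody can capture ribosomes, with the mRNA on them, out of cells in which the fusion is made. No library without the fusion was analysed here. A second label calls the input libraries unbound, so they may hold the homogenate or what remained after the pull-down. The labels do not say whether replicates were separate animals or pools, so p-values measure the spread between these libraries, which may be technical.

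POU factors bind DNA through a POU-specific domain joined to a POU homeodomain. Pou2f1 (Oct-1) is made in most cell types. The Pou3f genes (Oct-6, Brn-2, Brn-1 and Brn-4) act in neural progenitors, neurons and some glia. Pou4f genes (Brn-3a, Brn-3b and Brn-3c) mark sensory neurons and a few brain nuclei: Pou4f1 is known for the red nucleus, the medial habenula and the tectum, among other sites, Pou4f2 for retinal ganglion cells and the tectum, and Pou4f3 for auditory hair cells. Pou6f1 (Brn-5) is widespread in the nervous system.

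The homology of the family is shown by the stretch of 60 coding bases that includes the recognition helix of the homeodomain. It is printed for the members that passed the test and for Pou4f2, the paralog of Pou4f1, 5′ to 3′ on the coding strand from GENCODE M21 transcripts (GRCm38, the assembly also called mm10). Capitals mark the 24 of 60 bases shared by the 8 members compared, which are all but Pou4f3.
Pou4f1: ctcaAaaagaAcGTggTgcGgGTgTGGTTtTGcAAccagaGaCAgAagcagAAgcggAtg
Pou4f2: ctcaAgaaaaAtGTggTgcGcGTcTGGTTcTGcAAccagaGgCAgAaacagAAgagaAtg
Pou3f1: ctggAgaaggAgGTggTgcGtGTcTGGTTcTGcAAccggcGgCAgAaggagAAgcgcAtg
Pou2f1: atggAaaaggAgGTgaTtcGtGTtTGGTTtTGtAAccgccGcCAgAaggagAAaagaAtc
They lie in coding exons at chr14:104465750-104465809, chr8:78434758-78434817 and chr1:165894974-165895033, on the minus strand for Pou4f1, Pou4f2 and Pou2f1, and at chr4:124658832-124658891 on the plus strand for Pou3f1. Pou4f1 and Pou4f2 were identical at 50 of these bases, and Pou4f1 and Pou6f1 at 35.

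Across the transcripts of the 9 genes, 6 of 36 pairs shared an identical stretch of more than 30 bases and 1 pair a stretch of more than 50. That pair was Pou4f1 and Pou4f2, with 71 identical coding bases, shown because a read that falls wholly inside them cannot be placed on either gene.
Shared by Pou4f1 and Pou4f2: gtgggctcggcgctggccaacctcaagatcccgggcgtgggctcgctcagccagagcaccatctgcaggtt
The stretch lies at chr14:104466054-104466124 in Pou4f1 and at chr8:78435062-78435132 in Pou4f2. The read length is not given in the sources used here. Outside such stretches the sequences differ, and reads with several alignments were kept apart from the gene counts in a summary line.

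Each library held between 38058239 and 45841499 reads assigned to genes. Lhx5, the driver gene, had 46.8, 56.0 and 49.1 CPM (reads relative to library size, scaled by TMM) in IP replicates 1, 2 and 3, against 3.92, 3.80 and 2.20 in input replicates 1, 2 and 3, a log2 fold change of 3.93 (SE 0.23). Several libraries stood apart in markers of other regions. IP replicate 2 held 77.9 CPM of the Purkinje cell gene Pcp2, against 0.167 and 0.117 in IP replicates 1 and 3. Input replicate 3 held 316 CPM of the striatal gene Ppp1r1b, while the first 2 inputs held 55.1 and 21.7. Its level of the dopamine transporter gene Slc6a3, a midbrain marker, was 4.98 CPM, and the first 2 inputs held 62.4 and 52.3. Input replicate 2 held 19.2 CPM of the cerebellar marker Cbln3, against 0.769 and 0.79 in input replicates 1 and 3. The choroid marker Ttr had 338, 7.24 and 1270 CPM in input replicates 1, 2 and 3. IP replicate 3 held 0.583 CPM of Slc17a7, against 11.9 and 11.8 in IP replicates 1 and 2. Calls of POU genes that IP replicate 2 or input replicate 3 change are given with and without them.

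Among the POU genes, Pou4f1 rose in IP, Pou3f1 and Pou2f1 fell, and the other members tested did not pass. Pou4f1 was 4.06-fold higher in IP, Pou3f1 2.65-fold lower and Pou2f1 1.87-fold lower. Of the 9 members, 8 had enough counts to be tested, and Pou4f3 did not. Of those 8, 1 was higher, 2 were lower and 5 missed the threshold of 0.05 on p-values from edgeR (quasi-likelihood F), Benjamini-Hochberg adjusted across the 17197 tested genes. Across all tested genes, 53.9% were called, 26% as higher and 27.9% as lower in IP, so a call by itself sets no member apart. The median log2 fold change of the 8 members was -0.34, beside -0.01 for all genes tested. IP and input values did not overlap for 4 members, 1 higher and 3 lower in IP, beside 63.5% of all tested genes, 30.7% higher and 32.8% lower. Without input replicate 3, 3 members were lower, as Pou4f2 joined them.

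**Figure D1:**
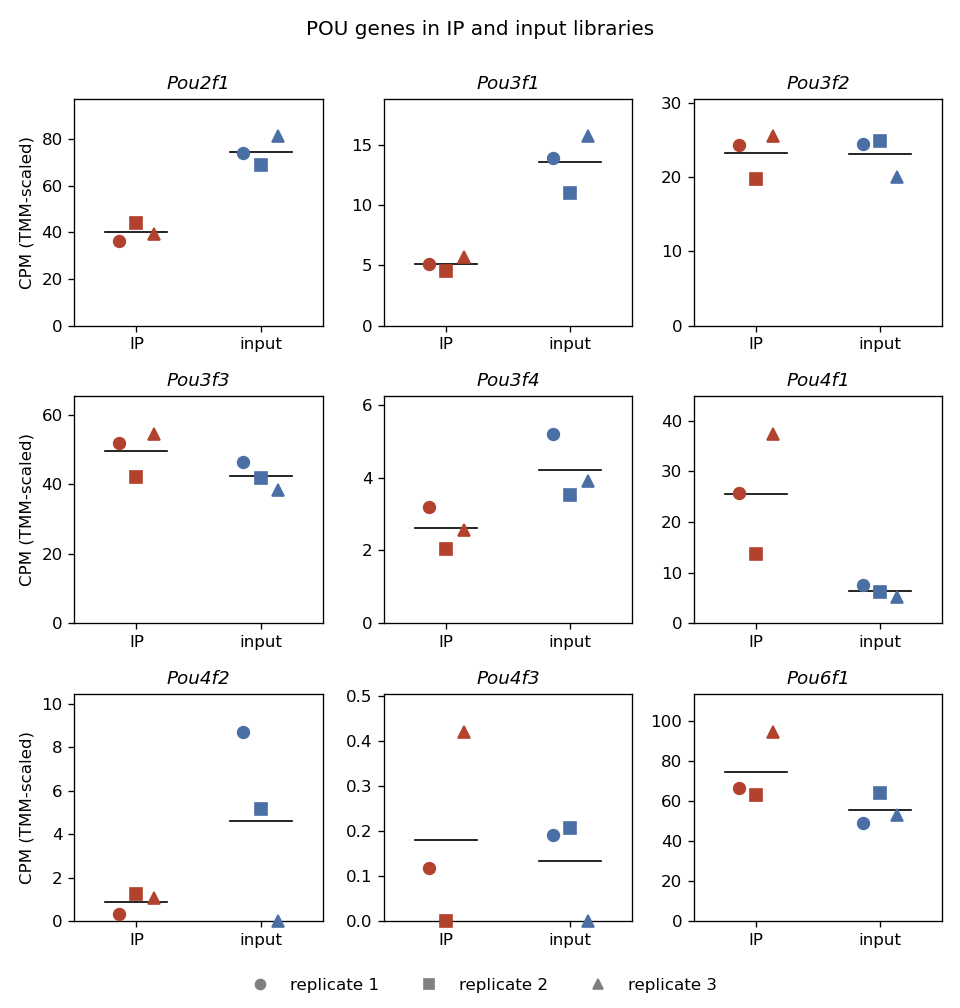
TMM-scaled CPM (y axis, from 0, own scale in each panel) of the 9 POU genes in the 3 IP and 3 input libraries; points are libraries, shapes replicate numbers and black lines group means. Pou4f1 sat between 13.7 and 37.3 CPM in IP, above every input library, and Pou4f2 was low in input replicate 3.

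Pou4f1 (Brn-3a), a homeodomain factor that specifies sensory and red nucleus neurons, was the member that rose. IP replicates 1, 2 and 3 had 25.7, 13.7 and 37.3 CPM of Pou4f1, against 7.52, 6.10 and 5.26 in input replicates 1, 2 and 3. Every IP library lay above every input library, although IP replicate 3 held more than any other and IP replicate 2 the least of its group. Pou4f1 averaged 25.6 ± 11.8 CPM over the IP libraries and 6.29 ± 1.15 CPM over the inputs (SD, n = 3 each). On the log2 scale IP exceeded input by 2.02 (SE 0.34, adjusted p 0.00138 by edgeR). Without 1 library at a time it stayed called, from 1.66 without IP replicate 3 to 2.29 without IP replicate 2. It stood at 2.16 with IP replicate 2 and input replicate 3 both left out. In these bulk libraries, a different number of cells of a type and a different amount of RNA per cell cannot be told apart. The gene lies on chromosome 14 from 104461676 to 104467999 on the minus strand. No gene listed in the count files overlaps it or starts within 50 kb of it.

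Red nucleus lineage markers rose in IP, as did general neuron markers. Among 11 such genes 9 passed as higher, 0 as lower, and 2 missed the threshold. Their median log2 fold change was 1.92, beside -0.01 for all genes tested. The list was drawn up with earlier results of these libraries known, so its direction is not independent evidence. Their summed level was 1180 to 1490 CPM in IP libraries and 402 to 617 CPM in input libraries. Of 10 neuron markers, 8 were higher and 1 was lower, with a median of 0.96 and a summed level of 20000 to 25200 CPM in IP and 9550 to 13200 CPM in input. Rbfox3, a marker of most neurons, is on both lists and stood at 0.47 (SE 0.11). The part of the neuron content in the Pou4f1 and red nucleus values was not tested. Slc17a6, the vesicular glutamate transporter gene of red nucleus neurons and many others, had a log2 fold change of 1.42 (SE 0.29), and the calcium-binding protein gene Pvalb 1.92 (SE 0.25). In IP replicate 1, Slc17a6, Pvalb and Rbfox3 held 643, 280 and 239 of the 1350 CPM of the red nucleus list. Evx1, a homeodomain factor, had 1.07, 0.976 and 1.35 CPM in IP replicates 1, 2 and 3, against 0.745, 0.710 and 0 in input replicates 1, 2 and 3, and did not pass.

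Markers of the habenula, another of the brain sites for which Pou4f1 is known, were more often lower than higher in IP. Among 10 such genes 7 fell, 0 rose and 3 missed the threshold. Their median log2 fold change was -2.09. Their summed level was 102 to 221 CPM in IP and 281 to 337 CPM in input. Gng8, a G protein subunit gene of the medial habenula, had 0.764, 0.269 and 0.560 CPM in IP replicates 1, 2 and 3, against 7.95, 5.64 and 8.61 in input replicates 1, 2 and 3. The 2 most abundant habenula list genes that fell were Lmo3 (-1.12, SE 0.10) and Slc17a7 (-3.40, SE 0.89), both also expressed in other regions. Slc17a7 lost its call without the low-count filter (-3.40, adjusted p 0.0819 by edgeR) and without input replicate 2 (-3.04, adjusted p 0.0514). Tac2, a tachykinin gene also used outside the habenula, was uneven, with 85.7, 119 and 5.74 CPM in IP against 11.9, 6.30 and 17.3 in input, and did not pass (adjusted p 0.0501 by edgeR). It passed as higher without IP replicate 3 (3.12), with DESeq2 (2.53) and with the stricter count filter (2.49).

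Genes known to work with Pou4f factors or under their control were more often lower than higher in IP. Of 18 listed, 16 were tested, with 1 higher, 7 lower and 8 not passed, and a median log2 fold change of -0.64. The neurotrophin receptor gene Ntrk2 stood at -0.90 (SE 0.21) and the nuclear receptor gene Nr4a2 at -0.89 (SE 0.21). Of 10 astrocyte markers 9 were lower in IP too, and the part of glial RNA in the Ntrk2 value was not tested. The substance P precursor gene Tac1 was higher by 0.89 (SE 0.27), a call lost without IP replicate 1 (0.60), input replicate 1 (0.86) or input replicate 2 (0.73). Isl1, a LIM homeodomain partner in sensory neurons, had 1.27, 1.15 and 0.280 CPM in IP, against 2.57, 2.25 and 21.6 in input replicates 1, 2 and 3. Its log2 fold change of -3.29 (SE 0.96) was called with all libraries, but not without input replicate 3 (-1.43), nor without IP replicate 1 (-3.61), 2 (-3.51) or 3 (-2.85), with the replicate block (-2.40), with limma-voom (-2.71) or without the low-count filter (-3.28). The nicotinic receptor genes Chrnb3 and Chrnb4 stood at -2.37 (SE 0.53) and -2.06 (SE 0.42) on the same scale. Without input replicate 3 they stood at -2.83 and -2.27, and both kept their calls. Chrnb3 had 17.2, 16.6 and 3.53 CPM in input replicates 1, 2 and 3. Chrna3 (-0.38, SE 0.37) and Chrna5 (-0.38, SE 0.70), nicotinic receptor genes of the same list, did not pass.

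Pou4f2 (Brn-3b) followed a different order across libraries. It had 0.334, 1.24 and 1.05 CPM in IP replicates 1, 2 and 3, against 8.70, 5.16 and 0.0247 in input replicates 1, 2 and 3. Input replicate 3 thus held a single read, below every IP library, while the other inputs lay above every IP library. As counts, the IP libraries had 14, 51 and 45 reads and the input libraries 362, 225 and 1. The log2 fold change over all libraries was -2.40 (SE 1.18) and did not pass (adjusted p 0.117 by edgeR). Leaving out input replicate 3 gave -3.0 (SE 0.52), which passed with an adjusted p of 0.00297 by edgeR, and with IP replicate 2 also left out it was -3.37 (adjusted p 0.0049). Other choices moved it the other way without a call, to -1.56 without input replicate 1, -1.59 with the replicate number as a block and -0.68 with limma-voom. Pou4f2 lies on chromosome 8 from 78433010 to 78436645 on the minus strand.

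Input replicate 3 was also low in several tectum markers. Of 13 tectum genes, 6 were more than 4-fold lower in input replicate 3 than in either other input, and 3 were above both, a count made after the values were seen. Tfap2d, an AP-2 factor of the tectum, had 0.693, 1.22 and 2.12 CPM in IP replicates 1, 2 and 3, against 10.8, 14.8 and 0.296 in input replicates 1, 2 and 3. Its log2 fold change of -2.67 (SE 1.03) did not pass, but passed without input replicate 3 (-3.27) and with the stricter count filter (-2.74). Tfap2b had 6.9, 51 and 6.44 CPM in IP, against 39.1, 48.7 and 0.913 in input, and stood at -0.46 (SE 1.34) without a call. Without IP replicate 2 and input replicate 3 together, Tfap2b passed at -2.77. Pax7, a paired homeodomain factor of the dorsal midbrain, had 9.91, 6.96 and 6.76 CPM in IP, against 6.66, 6.69 and 0.0987 in input. Pax7 thus lay at like levels in the IP libraries and the first 2 inputs, where Pou4f2 was several times lower in IP. Among the 12 tectum markers tested, 1 rose, 3 fell and 8 missed the threshold, at a median log2 fold change of -0.31. Their summed level was 210 to 239 CPM in IP and 282 to 392 CPM in input. The most abundant that fell were Meis2 (-1.29, SE 0.37), a homeobox factor gene, and Zic1 (-1.02, SE 0.30), a zinc finger factor gene, both made in other regions too. With input replicate 3 and IP replicate 2 both left out, Meis2 (-0.69) and Zic1 (-0.66) no longer passed. Meis2 also lost its call without the low-count filter (-1.28) and without IP replicate 1 (-1.20), and Zic1 without IP replicate 1 (-0.99), 2 (-1.08) or 3 (-0.99). The number that fell was 1 without IP replicate 1, and the number that rose was 2 without input replicate 2 and with the replicate block. The part of these differences between inputs in the Pou4f2 values was not tested.

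**Figure D2:**
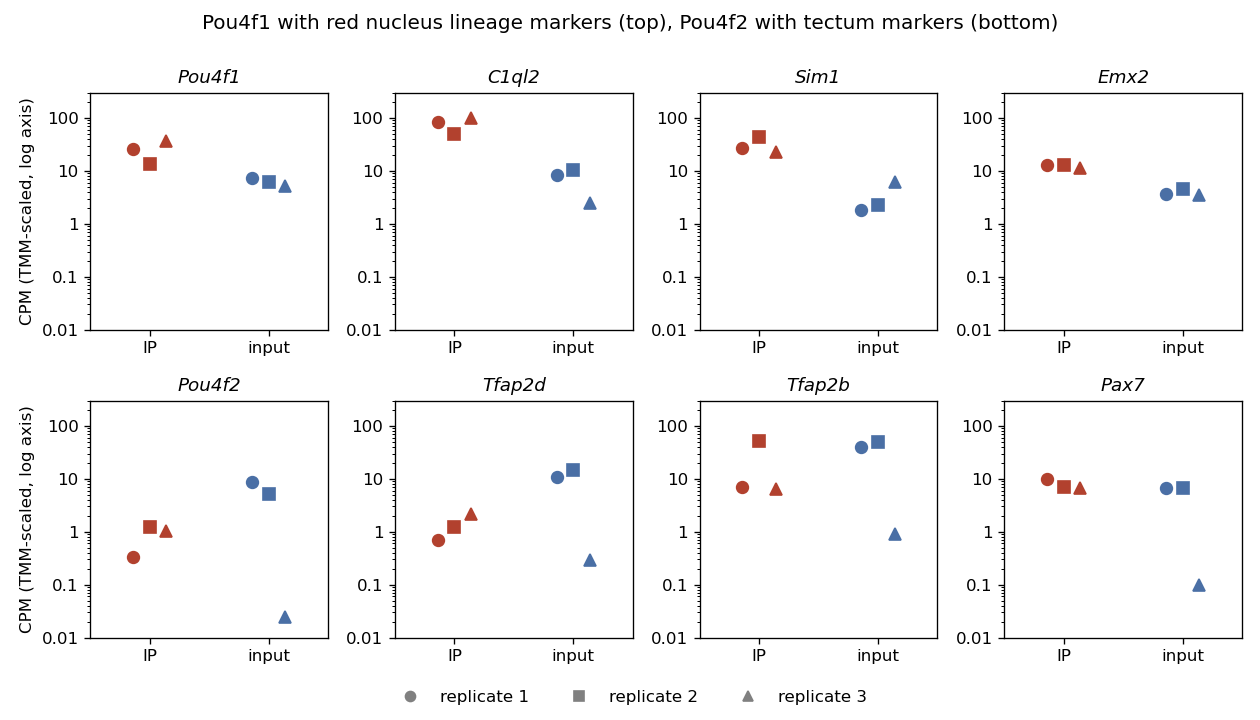
TMM-scaled CPM on a log y axis in IP and input libraries (points, shaped by replicate number) for Pou4f1 and 3 red nucleus lineage markers in the top row, and for Pou4f2 and 3 tectum markers in the bottom row. Input replicate 3 was the lowest library for Pou4f2 (0.0247 CPM), Tfap2d (0.296 CPM), Tfap2b (0.913 CPM) and Pax7 (0.0987 CPM). It was also the lowest for Pou4f1 (5.26 CPM), C1ql2 (2.44 CPM) and Emx2 (3.5 CPM), and not for Sim1 (6.14 CPM).

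Pou4f3 (Brn-3c), the hair cell factor, was close to the limit of detection. IP replicates 1, 2 and 3 had 5, 0 and 18 reads and input replicates 1, 2 and 3 had 8, 9 and 0. A count of 0 allows up to 3 reads, or 0.0727 CPM in IP replicate 2 and 0.0788 CPM in input replicate 3, for counting error only. Pou4f3 had too few counts to be tested, so its IP and input levels were not compared. The gene lies on chromosome 18 from 42394539 to 42397249.

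Within the Pou4f genes the balance between paralogs depended on the library. Per kb of exon, Pou4f1 made up 97.3%, 88.3% and 94.1% of the summed Pou4f level in IP replicates 1, 2 and 3, against 36.5%, 43.5% and 99.3% in input replicates 1, 2 and 3. Input replicates 1 and 2 were thus mostly Pou4f2, and input replicate 3 resembled the IP libraries in this share. The log2 ratio of Pou4f1 to Pou4f2 averaged 4.41 ± 1.41 over the IP libraries and 2.04 ± 4.46 over the inputs (SD, n = 3 each). The difference of 2.37 was smaller than the spread of the inputs (exact permutation test, two-sided, p = 0.4), and it was 4.94 without input replicate 3 and 0.97 without input replicate 1. With 3 libraries a group, the smallest p this test can give is 0.1.

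The Pou3f genes parted in IP, with Pou3f1 down, Pou3f4 lower without a call, and no call for Pou3f2 or Pou3f3. Pou3f1 (Oct-6), known from myelinating Schwann cells and cortical neurons, had 5.11, 4.52 and 5.69 CPM in IP replicates 1, 2 and 3, against 13.9, 11 and 15.7 in input replicates 1, 2 and 3. No IP library reached the lowest input. Its log2 fold change was -1.41 (SE 0.20, adjusted p 0.000602 by edgeR), and it ran from -1.53 to -1.31 with 1 library left out, always called. Pou3f1 lies on chromosome 4 from 124656807 to 124660655. The annotation also has an antisense transcript, Gm2164, whose exons overlap it, with no entry of its own in the count files, so reads of the pair cannot be told apart if counting ignored strand. Fhl3, a LIM-only gene 40046 bases away with 0.119, 0.0976 and 0.256 CPM in IP against 1.68, 0.940 and 3.53 in input, stood at -3.67 (SE 0.67).

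Pou3f4 (Brn-4), a factor of the inner ear and of the developing striatum and hypothalamus, is on chromosome X from 110814280 to 110817207. It had 3.20, 2.05 and 2.56 CPM in IP, against 5.19, 3.51 and 3.90 in input. The groups did not overlap, yet the log2 fold change of -0.69 (SE 0.28) missed the threshold (adjusted p 0.0698 by edgeR). It passed with DESeq2 (-0.72, adjusted p 0.037), with upper-quartile scaling, with library totals alone and with a stricter count filter.

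Pou3f2 (Brn-2), used in neurogenesis and in hypothalamic neurons, is on the same chromosome as Pou3f1, from 22482780 to 22488366. It had 24.3, 19.8 and 25.5 CPM in IP, against 24.5, 24.9 and 20.0 in input, and the groups overlapped. The log2 fold change was 0.00 (SE 0.15). Pou3f3 (Brn-1), a paralog with overlapping roles in cortical development, had 52.0, 42.1 and 54.4 CPM in IP, against 46.5, 41.8 and 38.5 in input. It was higher in IP in all 3 same-numbered pairs, but the groups overlapped and the log2 fold change of 0.23 (SE 0.14) did not pass (adjusted p 0.191 by edgeR).

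Shares of the Pou3f genes differed little among IP libraries. Pou3f3 took 50.9%, 51.2% and 51.4% of the summed Pou3f level per kb in IP replicates 1, 2 and 3, against 39.1%, 39.9% and 36.6% in input. Pou3f1 took 9.63%, 10.6% and 10.4% in IP and 22.5%, 20.2% and 28.8% in input. Every IP library lay outside the input range for both shares. The log2 ratio of Pou3f1 to Pou3f3, which does not depend on scaling, averaged -2.33 ± 0.06 over the IP libraries and -0.71 ± 0.33 over the inputs (SD, n = 3 each), a difference of -1.62. The ratio of Pou3f4 to Pou3f3 was lower in IP by a difference of -0.91, and that of Pou3f3 to Pou3f2 differed by 0.22. Each of these 3 ratios separated the groups fully (exact permutation p = 0.1, the smallest possible, and 0.133 adjusted over the 4 ratios compared).

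**Figure D3:**
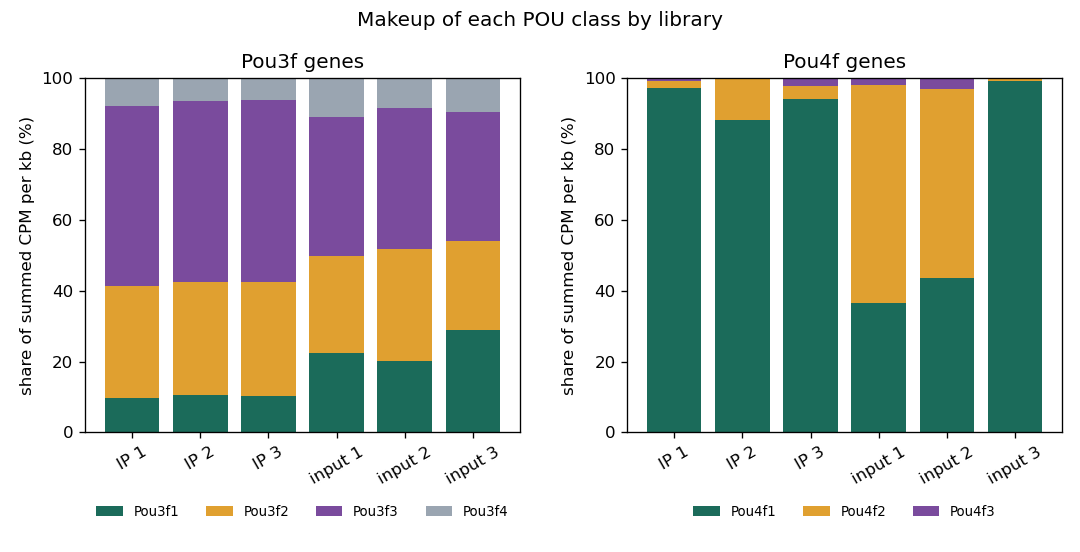
Share of the summed CPM per kb of exon (y axis, percent) taken by each Pou3f gene (left) and each Pou4f gene (right) in IP replicates 1 to 3 and input replicates 1 to 3. Pou3f1 took about 10.2% in IP and 23.8% in input on average, and Pou4f1 led the Pou4f genes in each IP library and in input replicate 3.

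Long noncoding neighbours of Pou3f3 did not all follow it. Pou3f3 spans 42695768 to 42703176 on the plus strand of chromosome 1. Pantr1, which starts on the opposite strand 926 bases away, had 14.9, 10.9 and 20.7 CPM in IP, against 12.5, 14.9 and 18 in input, which gave 0.04 (SE 0.25) on the log2 scale. Pantr2, 3885 bases from the other end, had 0.334, 0.122 and 0.256 CPM in IP, against 0.985, 1.35 and 1.04 in input. It fell by 2.23 on the log2 scale (SE 0.53, adjusted p 0.00745 by edgeR). Dalir, a further noncoding neighbour, had a log2 fold change of 0.39 (SE 0.35) and did not pass. Whether counting used strand is not given, but none of these overlaps Pou3f3.

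Genes that act with or under Pou3f factors in progenitors and glia were mostly lower in IP. Among 14 such genes 10 fell, 0 rose and 4 missed the threshold, at a median log2 fold change of -2.66. The number that fell was 8 without IP replicate 2, without input replicate 3 and without both. Fabp7, a radial glial and astrocyte lipid carrier gene, stood at -3.60 (SE 0.14), and Sox8, a glial HMG-box factor gene, at -3.36 (SE 0.16). Myt1l, a neuronal zinc finger factor gene, had 241, 245 and 269 CPM in IP against 241, 255 and 303 in input and did not pass. Glial markers were lower at the same time. All 11 oligodendrocyte and precursor markers fell, with a summed level of 311 to 459 CPM in IP against 3880 to 4600 in input, and 9 of 10 astrocyte markers fell, at 257 to 313 CPM against 1500 to 1890. Several genes of the Pou3f list, Sox10 among them, are themselves made by glia. The part of glial RNA in the Pou3f1 and Pou2f1 values was not tested.

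Pou2f1 (Oct-1) fell in IP. IP replicates 1, 2 and 3 had 36.5, 44.2 and 39.3 CPM, against 73.9, 68.9 and 81.2 in input replicates 1, 2 and 3. The groups were well apart, at 40.0 ± 3.90 CPM over the IP libraries and 74.7 ± 6.18 CPM over the inputs (SD, n = 3 each). On the log2 scale the difference was -0.90 (SE 0.12, adjusted p 0.000515 by edgeR) and ran from -1.01 to -0.82 with 1 library left out. Pou2f1 spans 165865154 to 166002678 on chromosome 1, and exons of Cd247, a T cell receptor gene, overlap its end on the opposite strand. Cd247 had at most 0.192 CPM in any library. Ambiguous reads, which fall on more than 1 gene, made up 1.59% to 1.68% of all reads in the count files in IP and 8.03% to 10.9% in input, and their part in the Pou2f1 value was not tested.

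None of the tested Pou2f1 cofactors passed as lower, although 1 did with upper-quartile scaling. Of 8 genes, 7 were tested, with 3 higher, 0 lower and 4 not passed, and a median log2 fold change of 0.04. The 3 were subunits of SNAPc, a complex that activates small nuclear RNA genes and binds Oct-1. Snapc1 was higher by 0.72 (SE 0.13), Snapc5 by 0.78 (SE 0.18) and Snapc2 by 0.86 (SE 0.16). The other SNAPc subunit genes listed, Snapc3 (-0.05, SE 0.11) and Snapc4 (0.04, SE 0.14), did not pass. Hcfc1, a chromatin cofactor gene named for its part in Oct-1 complexes, had 72.9, 78.2 and 79.8 CPM in IP, against 78.2, 88.3 and 97.4 in input, and did not pass, except with upper-quartile scaling (-0.35).

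Pou6f1 (Brn-5), a factor of mature neurons, was the most abundant POU gene per kb in both groups. It had 66.6, 63.1 and 94.6 CPM in IP, against 49.2, 64.1 and 53.1 in input, and IP replicate 2 fell within the input range. Its log2 fold change of 0.43 (SE 0.18) did not pass (adjusted p 0.07 by edgeR), and neither did its values with 1 library left out, from 0.24 to 0.55. Pou6f1 lies on chromosome 15 from 100575318 to 100599984. Its neighbours Tfcp2 (0.11, SE 0.13) and Dazap2 (-0.20, SE 0.11) did not pass either (Dazap2 did with upper-quartile scaling, -0.35, and library totals only, -0.34), nor did the noncoding C330013E15Rik (0.56, SE 0.38).

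Pou6f1 and Pou3f3 had the highest levels per kb of exon in both groups. In IP, Pou6f1 averaged 10.8 ± 2.49 CPM per kb, followed by Pou3f3 (6.68 ± 0.874), Pou4f1 (5.47 ± 2.53), Pou3f2 (4.16 ± 0.541) and Pou2f1 (2.41 ± 0.235) (SD, n = 3 each). Ranges of Pou4f1 overlapped those of its neighbours Pou3f3 and Pou3f2, so their order in IP is not settled. In input, Pou6f1 (7.98 ± 1.11) and Pou3f3 (5.71 ± 0.544) led again, and Pou2f1 (4.50 ± 0.373), Pou3f2 (4.14 ± 0.493) and Pou3f1 (3.52 ± 0.624) followed with overlapping neighbours. Pou4f1 came after them at 1.35 ± 0.245 CPM per kb in input, where its range overlapped that of Pou3f4. Exon length was the union of all annotated exons, 16597 bases for Pou2f1, which lowers the level of genes with many alternative exons.

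**Figure D4:**
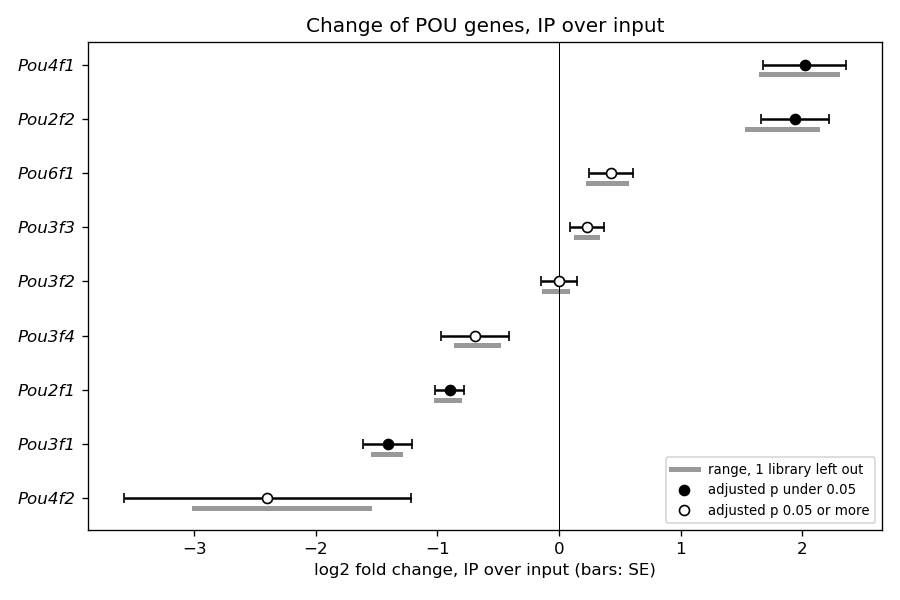
Log2 fold change of IP over input (x axis) with its SE for the 8 members tested and for Pou2f2, with grey bars for the range when 1 library is left out. Pou4f1 (2.02) and Pou2f2 (1.94) lay highest, and the widest error was that of Pou4f2 (SE 1.18).

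Of the POU genes outside the 9, Pou2f2 (Oct-2), known from B cells and some neurons, was higher in IP. It had 20.6, 39.2 and 21.6 CPM in IP, against 6.39, 6.16 and 8.64 in input, with its highest value in IP replicate 2. Its log2 fold change was 1.94 (SE 0.28, adjusted p 0.000651 by edgeR) and 1.55 without that library. Pou2f3, the tuft cell factor gene, had 0 reads in all IP libraries and 10, 3 and 7 in input replicates 1, 2 and 3. Pou1f1, Pou5f1 and Pou5f2 had at most 4 reads in any library.

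By likeness over the 6 libraries among 13043 abundant genes, Atp6v1b2, a proton pump subunit gene, and Prune were among the closest to Pou4f1, with Pearson correlations of log2 CPM of 0.999 and 0.998. Their differences were smaller, at log2 fold changes of 0.51 and 0.74. The closest to Pou3f1 were Rassf3 (0.999), Fgd5 (0.998) and Ell2 (0.997), at log2 fold changes of -1.10, -1.48 and -0.85. The 6 points share the split into IP and input and the lanes, so these values only describe.

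Other cell type markers give the setting of these values. Among the neuron markers, Snap25 stood at 1.10 (SE 0.17) and Stmn2 at 0.85 (SE 0.13), while Map2 stood at -0.85 (SE 0.11). All 8 microglial and all 8 vascular markers fell, with P2ry12 at -3.87 (SE 0.36) and Rgs5 at -3.58 (SE 0.33). Of 10 cortical markers 6 fell and 2 rose (1 without IP replicate 2 and input replicate 3). Of 10 striatal markers 6 fell and 1 rose, but the number that fell was 1 when IP replicate 3 was left out or the replicate block was used. It was 2 when IP replicate 1 was dropped, and 3 when either IP replicate 2 or input replicate 3 was. The number that rose was 0 when IP replicate 1 or either of the first 2 inputs was dropped, and 2 when input replicate 3 was. Of 10 hypothalamic peptide genes 4 fell and 1 rose, Sst, which lost its call in 4 of the leave-outs and with the block. Of 9 cerebellar markers tested 3 fell and 1 rose (2 without input replicate 2). Of 5 choroid and ependymal markers tested 2 fell and 0 rose, with 4 fallen without IP replicate 1 and 5 without input replicate 2.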

How the data were processed

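For each library the authors deposited a file of raw counts by gene symbol. STAR 2.0.0e, HTSeq and the mm10 assembly are named in the submitters' processing notes. Which annotation, strand setting and counting mode were used is not given in the sources. The entry for unknown genes (at most 1 read) and 5 summary lines stayed out of totals and tests.

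Groups and replicate numbers came from sample titles. Genes were filtered with filterByExpr (minimum count 10, minimum total 15), which kept 17197 of 32531. IP was compared with input by edgeR 4.0.16 in R 4.3.3 (two-sided robust quasi-likelihood test after TMM scaling, with no term beside the group, and Benjamini-Hochberg adjusted p-values over all tested genes at a threshold of 0.05). The SE is the log2 fold change over the square root of F. At 38058239 to 45841499 counts, 3 counts correspond to 0.0654 to 0.0788 CPM, for counting error only. Positions, exon lengths and transcripts came from GENCODE M21 (GRCm38). On simulated data the test recovered 50% of 2-fold changes and 72% of 4-fold changes. The share of false calls was 8.27%, above the threshold. The simulation changed only 200 of 17197 genes, whereas 53.9% of tested genes were called in these data. Its shares therefore do not give the recovery or error of the comparison made here.

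The members and gene lists were chosen with earlier results of these data known. Named genes were the members, the other POU genes, Lhx5 and library checks. Per list, up to 2 most abundant genes that passed in the commoner direction and 1 in the other were named. Genes that overlap a member or start within 50 kb of one were named too. So were the 3 most alike genes for the largest called rise and fall. Any further list gene was chosen with its values known. Some genes that the rule names are not reported here. By the labels, an IP and an input library of 1 number ran on 1 lane, which pairs them by lane. Their deviations from group means correlated at 0.155, 0.074 and 0.051 within these pairs. Between IP and input libraries of different numbers the values were lower, from -0.107 to 0.021. Replicates correlated at 0.971 to 0.985 and none was a copy of another. Alternatives were other scalings and filters, DESeq2 1.42.0, limma-voom (limma 3.58.1), a replicate block and leaving out libraries.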

Additional observations from a re-analysis of the deposited data

How the results depend on the processing

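Over 15 alternatives each, the fold changes of Lhx5, Pou4f1, Pou3f1 and Pou2f1 kept their direction and their call, and those of Pou3f2, Pou3f3 and Pou6f1 stayed without one. Pou3f4 passed at -0.84 with upper-quartile scaling, -0.83 with library totals only, -0.76 with a filter of CPM above 1 in 3 libraries and -0.72 with DESeq2. The upper-quartile and library-total scalings set the median of all genes at -0.17 and -0.15. Pou4f2 ranged from -3.0 to -1.56 with 1 library left out and passed without input replicate 3 (-3.0) and without IP replicate 2 and input replicate 3 together (-3.37), where the cause was not tested. With the replicate block, Pou4f1 stood at 1.92, Pou3f1 at -1.40, Pou2f1 at -0.90 and Pou4f2 at -1.59, and no call of a POU gene changed. Upward calls were 48.2% of all calls, and 38.1% and 39.2% with upper-quartile scaling and library totals only. Of 1480 comparisons of other genes and lists with an alternative, 1388 showed no change of call or a count within 1.5 times. Fold changes that turned sign without a call in either fit are among these, as with Pcp2 without IP replicate 2 (-3.18). Of the rest, 42 lost a call, 10 gained one, 39 counts moved by over 1.5 times and 1 turned its direction with a call. That was Pcp2, at 4.34 without a call over all libraries and at -3.66 without IP replicate 2 and input replicate 3, where IP replicate 2 held nearly all its IP reads. Depth limits Pou4f3 and the low values of Pou4f2.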
